A study of Homo sapiens with 15 samples.

Results

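Gene expression after 24 h of geldanamycin at 40 nM was compared with that after 24 h of vehicle in A549 cells, an epithelial line from a human lung carcinoma. The comparison takes 6 of the study's 15 arrays, chosen by sample title: 3 of cells given 40 nM geldanamycin and 3 of cells given the vehicle, DMSO at 0.4%. Per the submitters, 40 nM was the IC50 determined for these cells. Cells of both groups had attached for 24 h before treatment, grew in serum, and were confluent when they were trypsinized and frozen for RNA extraction. Arrays of 40 nM and of vehicle at 48 h give values only where the effects at both times are set against each other. The study's other 3 arrays, of cells given 10 nM geldanamycin for 48 h, give no change here. They enter the choice of probe sets, the array levels at 48 h and the spread between replicates, which was pooled over all 15 arrays. The model is 1 cell line in culture. The labels do not say that replicates were separate cultures, so the p-values reflect array-to-array spread, part or all of which may be technical.

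HSP90 is an ATP-driven chaperone that holds kinases, steroid receptors and other clients in a folded, ligand-ready state with the help of co-chaperones. Geldanamycin, a benzoquinone ansamycin made by a Streptomyces species, occupies its ATP pocket, and clients are then ubiquitinated and degraded. Chaperones also restrain the transcription factor HSF1, which activates heat shock genes once it is released, so rising chaperone transcripts are a widely used sign that an HSP90 inhibitor has acted.

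Values are log2 expression levels after RMA, 1 per probe set, and a log2 change of 1 is 2-fold. A gene was called where limma's adjusted p was below 0.05 over 19775 genes, and "±" beside a change is its standard error with 3 arrays per group. Of these genes 6222 were called (31.5%), 2927 of them higher at 40 nM (14.8%) and 3295 lower (16.7%). At least 2-fold changes were called for 320 genes that were higher (1.62%) and 228 that were lower (1.15%), and at least 4-fold ones for 37 (0.187%) and 12 (0.0607%). The groups did not overlap for 37.6% of all genes. The median change over all genes was -0.0072. Probe sets whose names end in _x_at or _s_at may match several transcripts; the others are called plain here, and they measured 17098 genes, of which 4499 were called. Of 87 list counts of at least 5 genes, 42 moved by over 1.5 times with plain probe sets alone. Such a count also drops where members have no plain probe set. The share called depended on the level: in 4 bins of equal size it was 4.57%, 15.7%, 46.7% and 58.8% from the dimmest to the brightest. These bin shares count both directions together. Every list count below stands beside these shares, and a count near the share at its genes' level says nothing particular of the list. Arrays of a group correlated at 0.996 to 0.998 at 40 nM and at 0.994 to 0.997 in vehicle, against 0.985 to 0.988 between the groups. Spiked bacterial controls differed by a median of 0.014 over 27 poly-A probe sets. The 3' minus 5' difference of ACTB, a measure of RNA integrity, was 0.135 ± 0.0485 at 40 nM and 0.125 ± 0.00489 in vehicle (SD, n = 3 each).

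**Figure D1:**
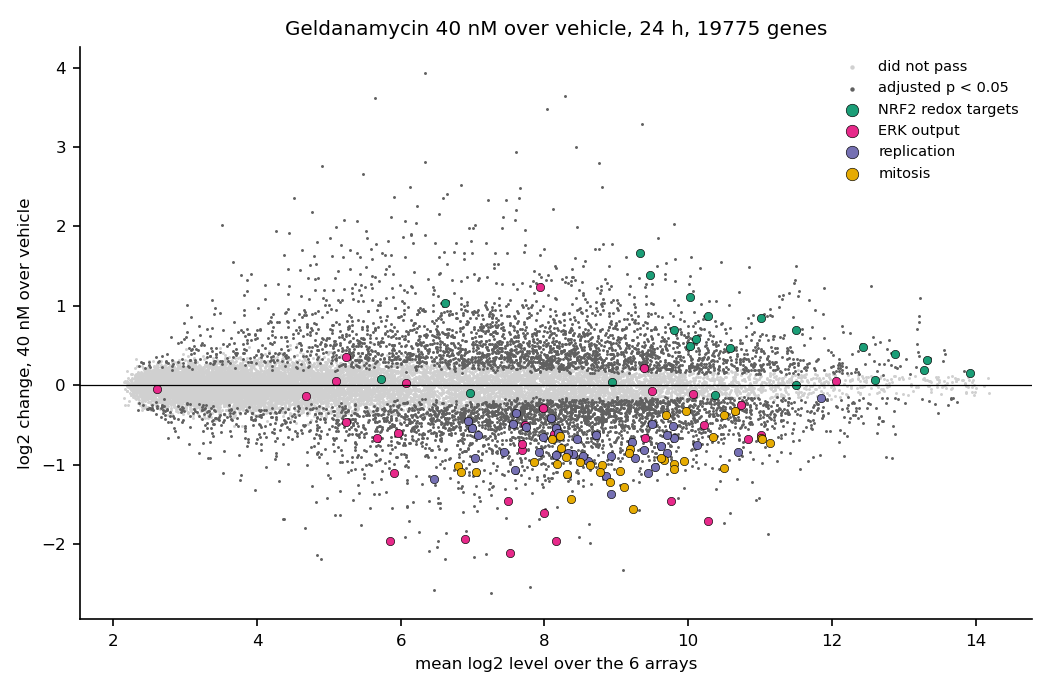
Log2 change at 40 nM over vehicle (vertical) against the mean log2 level over the 6 arrays (horizontal) for 19775 genes; grey points did not pass, dark points passed limma's adjusted p below 0.05, and coloured points are members of 4 gene lists. Mitotic and replication genes lie below 0 at middle to high levels, NRF2 targets of redox defence mostly above 0, and ERK output genes reach from -2.11 (EGR1) upwards.

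The 2 largest rises were those of HPD and TM4SF4. HPD, which breaks down a product of tyrosine, read 8.17, 8.25 and 8.47 at 40 nM, against 4.77, 3.84 and 4.50 in vehicle (3.93 ± 0.19, adjusted p = 3.4e-09). TM4SF4, a tetraspanin-like membrane protein of gut and liver, read 10.10, 10.15 and 10.08 at 40 nM, against 6.73, 6.40 and 6.30 in vehicle (3.64 ± 0.09, adjusted p = 5.3e-12). Both were dim or moderate in vehicle and the 3 arrays of each group lay apart from the other group by over 1 log2 unit. Among the 40 largest rises the median level was 8.02 at 40 nM and 5.52 in vehicle, and among the 40 largest falls it was 5.94 at 40 nM and 7.84 in vehicle. The smallest of these rises was 1.98 and the smallest of these falls 1.57. Another probe set of the same gene existed for 23 of the 40 rises and was called the same way in 13 of them. For the falls it existed for 26 and was called the same way in 15.

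Transporters and plasma proteins were among the other large rises. SLC23A1, a vitamin C transporter, read 7.57, 7.28 and 7.52 at 40 nM, against 3.80, 4.10 and 3.62 in vehicle (3.62 ± 0.15, adjusted p = 8.4e-10). SLC40A1, the iron exporter ferroportin, read 8.09, 8.06 and 8.17 at 40 nM, against 5.78, 5.57 and 5.40 in vehicle (2.52 ± 0.10, adjusted p = 4.3e-10). SLC51B, a subunit of the bile acid exporter, rose by 2.18 ± 0.12, and APOH and AMBP, plasma proteins made by liver, by 2.37 ± 0.13 and 2.50 ± 0.12. Enzymes among them were BCO1, which cleaves carotenoids (2.36 ± 0.07), HOGA1 of hydroxyproline breakdown (2.33 ± 0.11) and UGT1A6, a glucuronosyltransferase (2.65 ± 0.20). UGT1A6 had no plain probe set, so its value may come from several transcripts. AMBP and APOH were each called from 1 probe set, and without _x_at and _s_at probe sets their other one read -0.19 and -0.0009.

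Transcription factors and receptors were also among the largest rises. EHF, an ETS factor of epithelia, read 9.96, 10.02 and 10.17 at 40 nM, against 7.65, 7.59 and 7.43 in vehicle (2.49 ± 0.09, adjusted p = 2.3e-10), and all 5 of its other probe sets were also called higher. ELF3, its relative, lay just below the 40 largest rises and read 8.73, 8.70 and 8.67 at 40 nM, against 6.82, 6.74 and 6.69 in vehicle (1.95 ± 0.07, adjusted p = 1.8e-10). Neither gene's groups overlapped. CDKN1C, the cyclin-dependent kinase inhibitor p57, rose by 2.81 ± 0.13, NOTCH3 by 2.26 ± 0.11, the thyroid hormone receptor THRB by 2.08 ± 0.09, the receptor kinase FGFR3 by 2.35 ± 0.17 and the adhesion molecule L1CAM by 2.41 ± 0.13. MAP3K8, a kinase upstream of MEK, rose by 2.12 ± 0.13, and PDGFD, a ligand of PDGF receptors, by 2.21 ± 0.11.

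The largest falls held surface enzymes, transcription factors and lipid genes. NT5E, the enzyme CD73 that makes adenosine outside cells, read 6.52, 6.35 and 6.71 at 40 nM, against 9.24, 9.11 and 8.83 in vehicle (-2.54 ± 0.11, adjusted p = 1.3e-09), and its 3 other probe sets also fell, by 2.25 to 2.83. FOXD1, a forkhead factor, read 7.94, 7.87 and 7.99 at 40 nM, against 10.31, 10.25 and 10.20 in vehicle (-2.32 ± 0.06, adjusted p = 5.4e-12). G0S2, an inhibitor of the lipase ATGL, read 5.82, 5.96 and 6.05 at 40 nM, against 8.35, 7.91 and 8.04 in vehicle (-2.16 ± 0.10, adjusted p = 1.8e-09). None of these groups overlapped. ADAM19, a membrane protease, fell by 1.98 ± 0.06, TNFRSF12A, the receptor of TWEAK, by 1.6 ± 0.05, the neuronal kinase DCLK1 by 1.83 ± 0.13, the stress-responsive NIBAN1 by 1.69 ± 0.07 and the neutral amino acid transporter SLC6A15 by 1.86 ± 0.14. HMGA2, a chromatin protein of embryonic and tumour cells, fell by 1.6 ± 0.09, but none of its 8 other probe sets was called.

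Chaperone transcripts rose in part, and the response was uneven within each family. HSPB8, a small heat shock protein that works with BAG3 in selective autophagy, read 9.48, 9.47 and 9.39 at 40 nM, against 7.63, 7.34 and 7.38 in vehicle (2.0 ± 0.07, adjusted p = 3.3e-10). HSPB1, the abundant small heat shock protein HSP27, read 12.08, 12.15 and 12.23 at 40 nM, against 10.88, 10.83 and 10.77 in vehicle (1.33 ± 0.06, adjusted p = 2.3e-09). In both the lowest array at 40 nM stood over 1 log2 unit above the highest vehicle array. HSPB8 was not called from its other probe set (0.12, limma adjusted p = 0.55). Of 13 small heat shock protein and BAG genes, 6 rose, 1 fell and 6 did not pass, with a median change of 0.027, against 14.8% of all genes that rose and 16.7% that fell. Of the 6 rises, 3 passed with plain probe sets alone, 1 did not and 2 were not measured. The falls numbered 2 without 40 nM replicate 1 and 3 without vehicle replicate 1. CRYAB rose by 0.52 ± 0.12, BAG3 by 0.53 ± 0.06 and BAG1 by 0.53 ± 0.07.

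Of 13 measured HSP70 and HSP110 genes (16 listed), 4 rose, 3 fell and 6 did not pass, with a median of 0.14. The listed genes that were not measured had no probe set with 1 symbol under their name, so their change is not known here. HSPA4L, an HSP110-type nucleotide exchange factor, rose by 1.39 ± 0.11, its relatives HSPH1 by 0.96 ± 0.06 and HSPA4 by 0.48 ± 0.06, and HSPA2, an HSP70 best known from testis, by 1.35 ± 0.08. The 3 falls were those of HSPA5, or BiP, the HSP70 of the endoplasmic reticulum (-0.54 ± 0.05), the microsomal HSPA13 (-1.25 ± 0.10) and the ribosome-associated HSPA14 (-0.57 ± 0.08).

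The cytosolic HSP90 genes had levels above 12 in vehicle and rose by less than 2-fold. HSP90AB1, the constitutive cytosolic form, read 13.44, 13.45 and 13.46 at 40 nM, against 12.95, 12.92 and 12.91 in vehicle, a rise of 0.53 ± 0.05. HSP90AA1, the inducible form, read 13.66, 13.68 and 13.73 at 40 nM, against 13.43, 13.39 and 13.35 in vehicle, a rise of 0.30 ± 0.05, and its 3 other probe sets rose by 0.31 to 0.88. Neither gene's groups overlapped. HSP90B1 of the endoplasmic reticulum rose by 0.33 ± 0.09, a call that ended without 40 nM replicate 2 (0.28, limma adjusted p = 0.057) or without vehicle replicate 3 (0.29, adjusted p = 0.0504), and the mitochondrial TRAP1 did not pass (-0.15 ± 0.06, adjusted p = 0.086), though it was called lower without 40 nM replicate 2 (-0.20, adjusted p = 0.038). HSF1 itself fell by 0.24 ± 0.06, but did not pass with the 6 arrays alone (limma adjusted p = 0.058). HSF4, another heat shock factor, rose by 0.31 ± 0.10, a call that ended without 40 nM replicate 1 or 2 or vehicle replicate 1 (limma adjusted p = 0.13, 0.059 and 0.11). Of the 18 measured HSP90 co-chaperones, 8 rose, 4 fell and 6 did not pass. CHORDC1 rose by 0.73 ± 0.06, SUGT1 by 0.53 ± 0.07, FKBP4 by 0.49 ± 0.07, STIP1, which bridges HSP70 and HSP90, by 0.48 ± 0.07, and the kinase adaptor CDC37 by 0.37 ± 0.07. FKBP5, also a glucocorticoid receptor target, fell by 0.56 ± 0.06 and TTC4 by 0.55 ± 0.08. Of the 8 rises, 1 passed with plain probe sets alone, 4 did not and 3 were not measured. The one that passed was SUGT1, and CHORDC1 and FKBP4 did not (0.24 and 0.17). The falls of co-chaperones numbered 2 without vehicle replicate 1.

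The J-domain partners of HSP70 were split: of 22, 7 rose, 8 fell and 7 did not pass. Of the 8 falls, 4 passed with plain probe sets alone, 3 did not and 1 was not measured. DNAJB6, which suppresses aggregation, rose by 0.94 ± 0.09, DNAJC12 by 0.88 ± 0.09, DNAJB4 by 0.70 ± 0.08 and DNAJA1 by 0.52 ± 0.05. DNAJB1, usually a sensitive heat shock gene, did not pass (-0.05 ± 0.06, adjusted p = 0.6), and its arrays overlapped. DNAJC9, a histone chaperone, fell by 1.05 ± 0.06, as did 1 of its 2 other probe sets, while the one left without _x_at and _s_at probe sets did not pass (-0.082). Of 14 chaperonin and prefoldin genes, 5 rose, 2 fell and 7 did not pass. Of the 5 rises, 3 passed with plain probe sets alone and 2 were not measured. The mitochondrial pair HSPE1 and HSPD1 rose by 0.66 ± 0.05 and 0.40 ± 0.05, and the prefoldin subunit PFDN2 fell by 0.72 ± 0.05.

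**Figure D2:**
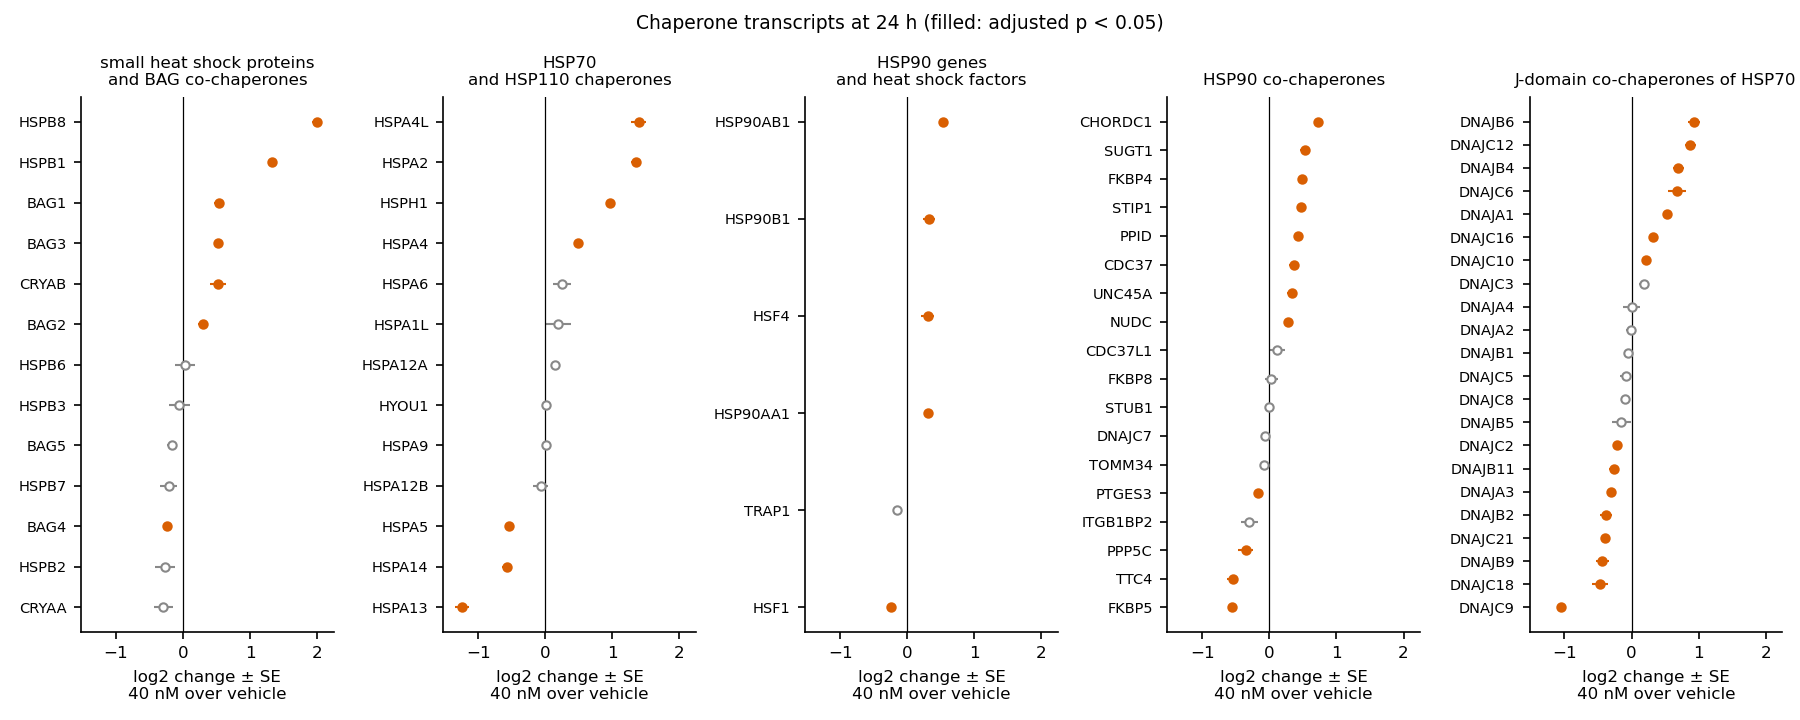
Log2 change at 40 nM over vehicle for every measured chaperone gene of 5 lists, one point per gene with bars of ± 1 standard error (3 arrays per group); filled points passed limma's adjusted p below 0.05. HSPB8 lies highest at 2.0, and HSPA13 lowest at -1.25.

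HSF1 binds heat shock elements, so the promoters of chaperone genes were searched for the letters of one. The heat shock element core GAANNTTC, which is its own reverse complement, was searched in the 250 bases before the start of 15384 genes with a RefSeq promoter on GRCh38.p14. It was present in 4.77% of all of them, in 9 of 73 chaperone genes (12.3%), in 6 of 46 that were called and in 3 of 27 that were not. It was also present in 6.98% of promoters of genes that rose at least 2-fold and in 8.56% of those that fell as much. The 4 called chaperone genes with the core and the largest changes are shown, with the core in capitals, 5′ to 3′ up to the base before the start:
HSPB8, chr12:119178681-119178930 (plus strand): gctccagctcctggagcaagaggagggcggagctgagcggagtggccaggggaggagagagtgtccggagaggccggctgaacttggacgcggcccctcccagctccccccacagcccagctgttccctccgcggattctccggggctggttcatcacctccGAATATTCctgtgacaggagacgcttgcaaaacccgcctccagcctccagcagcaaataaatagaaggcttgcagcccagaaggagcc
HSPB1, chr7:76302423-76302672 (plus strand): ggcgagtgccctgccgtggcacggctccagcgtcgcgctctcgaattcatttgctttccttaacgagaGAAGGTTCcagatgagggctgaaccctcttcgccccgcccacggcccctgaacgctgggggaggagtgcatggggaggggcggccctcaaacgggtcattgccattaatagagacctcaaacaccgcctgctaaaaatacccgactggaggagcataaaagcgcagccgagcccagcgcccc
DNAJB6, chr7:157336754-157337003 (plus strand): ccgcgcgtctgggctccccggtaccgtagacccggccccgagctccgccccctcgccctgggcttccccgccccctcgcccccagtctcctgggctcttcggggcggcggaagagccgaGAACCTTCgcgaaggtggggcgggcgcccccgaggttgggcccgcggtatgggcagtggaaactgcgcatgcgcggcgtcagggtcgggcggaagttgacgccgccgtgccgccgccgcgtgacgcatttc
CHORDC1, chr11:90223050-90223299 (minus strand): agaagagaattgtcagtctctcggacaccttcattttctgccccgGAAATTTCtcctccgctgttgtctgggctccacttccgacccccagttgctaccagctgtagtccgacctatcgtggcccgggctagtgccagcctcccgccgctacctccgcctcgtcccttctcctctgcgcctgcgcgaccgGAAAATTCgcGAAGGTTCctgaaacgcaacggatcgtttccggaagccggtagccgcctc

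CHORDC1 holds 3 copies, which begin at positions -205, -60 and -50 relative to its start, and the other promoters shown hold 1 each. HSPA6 and HSPA1L, heat-inducible and testis forms of HSP70 that also hold the core, did not pass (0.25 ± 0.13, adjusted p = 0.19 and 0.19 ± 0.19, adjusted p = 0.53).

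Of 25 genes of the endoplasmic reticulum stress response, 5 rose, 10 fell and 10 did not pass, against 14.8% of all genes that rose and 16.7% that fell. The rises numbered 8 without vehicle replicate 1, and also with cyclic loess between arrays, 9 with array weights and 3 with the 6 arrays alone. DDIT3, the stress factor CHOP, read 7.22, 7.48 and 7.34 at 40 nM, against 8.52, 8.58 and 8.65 in vehicle (-1.24 ± 0.07, adjusted p = 1.2e-08). The secreted chaperone helper MANF fell by 0.76 ± 0.05, SDF2L1 by 0.66 ± 0.08 and the transcription factor XBP1 by 0.57 ± 0.09. ERO1B, an oxidase of that compartment, rose by 0.82 ± 0.15 and CREB3L2, another membrane-bound factor, by 0.81 ± 0.06, the last not from the probe set left without _x_at and _s_at ones (0.12).

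ATF4, the factor that answers amino acid shortage and translational stress, governs a set of genes that were mostly lower after 24 h. Of 22, 2 rose, 14 fell and 6 did not pass, with a median of -0.68. Of the 14 falls, 7 passed with plain probe sets alone, 1 did not and 6 were not measured. The rise of GDF15, a secreted stress factor (0.20 ± 0.07), ended without any 1 of the arrays but vehicle replicate 1 (limma adjusted p = 0.072 to 0.18). TRIB3, a pseudokinase, read 9.66, 9.82 and 9.72 at 40 nM, against 11.04, 11.04 and 11.03 in vehicle (-1.31 ± 0.05, adjusted p = 5.4e-10). ASNS, which makes asparagine, read 10.16, 10.09 and 10.30 at 40 nM, against 12.10, 12.04 and 12.02 in vehicle (-1.86 ± 0.06, adjusted p = 7.0e-11). Neither gene's groups overlapped, but the other ASNS probe set did not pass (0.036, limma adjusted p = 0.74). CEBPG, a partner of ATF4, fell by 1.26 ± 0.09, NUPR1 by 1.08 ± 0.10, VLDLR by 0.99 ± 0.07, SESN2 by 0.90 ± 0.06 and CHAC1, a glutathione-degrading enzyme, by 0.80 ± 0.10.

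Genes that charge transfer RNA were lower as well. Of the 17 cytosolic aminoacyl-tRNA synthetase genes measured, 0 rose, 15 fell and 2 did not pass, with a median of -0.44. Of the 15 falls, 9 passed with plain probe sets alone, 2 did not and 4 were not measured. SARS1, which charges serine, fell by 0.92 ± 0.06, GARS1, for glycine, by 0.90 ± 0.05, WARS1, for tryptophan, by 0.76 ± 0.06 and AARS1, for alanine, by 0.73 ± 0.05. Of 24 amino acid transporters, 6 rose, 8 fell and 10 did not pass. Only 3 rises were called without 40 nM replicate 3, vehicle replicate 2 or vehicle replicate 3. Of the 6 rises, 3 passed with plain probe sets alone, 2 did not and 1 was not measured. Of the 8 falls, 4 passed with plain probe sets alone, 1 did not and 3 were not measured. SLC1A4 and SLC1A5, carriers of small neutral amino acids and glutamine, fell by 1.53 ± 0.09 and 0.72 ± 0.06, while SLC7A7, an exporter of basic amino acids, rose by 1.23 ± 0.11 and the taurine transporter SLC6A6 by 0.90 ± 0.07. SLC1A4 was not called without _x_at and _s_at probe sets (-0.10).

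All 3 genes of serine synthesis fell. PHGDH, the first enzyme, read 9.13, 9.24 and 9.11 at 40 nM, against 10.55, 10.58 and 10.59 in vehicle (-1.42 ± 0.06, adjusted p = 6.4e-10), and the next enzymes PSAT1 and PSPH fell by 0.88 ± 0.05 and 0.51 ± 0.08. In the mitochondrial one-carbon branch SHMT2 fell by 0.94 ± 0.05 and MTHFD2 by 0.71 ± 0.05. Over the list of 18, 1 rose, 9 fell and 8 did not pass. The rise was that of MTR, methionine synthase (0.24 ± 0.08), and ended without 40 nM replicate 2 or 3 or vehicle replicate 2 or 3 (limma adjusted p = 0.085 to 0.14). The transsulfuration enzymes were opposed: CBS read 6.49, 6.62 and 6.78 at 40 nM, against 8.27, 8.24 and 8.38 in vehicle (-1.67 ± 0.08, adjusted p = 3.0e-09), whereas CTH read 8.78, 8.82 and 8.87 at 40 nM, against 6.81, 6.36 and 6.23 in vehicle (2.36 ± 0.13, adjusted p = 7.6e-09). Both differences were larger than any spread within a group.

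The amino acid response element TGATGNAA, searched on both strands as TGATGNAA and TTNCATCA, was in 2.31% of all promoters and in 7 of 46 genes of the ATF4, synthetase and serine lists (15.2%). It was in 4 of 32 that were called and in 3 of 14 that were not. The called genes with the element and the largest falls were ASNS and CHAC1, shown with the element in capitals:
ASNS, chr7:97872409-97872658 (minus strand): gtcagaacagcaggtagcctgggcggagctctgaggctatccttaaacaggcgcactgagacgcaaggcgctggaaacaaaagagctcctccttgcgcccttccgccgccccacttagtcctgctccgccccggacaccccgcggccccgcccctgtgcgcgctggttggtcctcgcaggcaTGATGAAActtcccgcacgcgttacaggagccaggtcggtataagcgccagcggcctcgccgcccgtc
CHAC1, chr15:40953221-40953470 (plus strand): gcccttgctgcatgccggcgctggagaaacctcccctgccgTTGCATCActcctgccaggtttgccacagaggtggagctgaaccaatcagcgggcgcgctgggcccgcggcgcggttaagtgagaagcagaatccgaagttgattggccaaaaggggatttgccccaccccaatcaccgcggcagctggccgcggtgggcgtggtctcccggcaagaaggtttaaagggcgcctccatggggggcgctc

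The element begins at position -68 of ASNS and at -209 of CHAC1.

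Other lists of protein synthesis had smaller changes. Of 24 nucleolar and ribosome biogenesis genes, 0 rose, 16 fell and 8 did not pass, with a median of -0.29. Of the 16 falls, 10 passed with plain probe sets alone, 2 did not and 4 were not measured. WDR74 fell by 0.74 ± 0.06, LYAR by 0.73 ± 0.09, the methyltransferase fibrillarin FBL by 0.38 ± 0.05 and MYC, which drives this program, by 0.67 ± 0.06. Of 25 genes of the mitochondrial ribosome and import machinery, 2 rose, 16 fell and 7 did not pass, with TIMM44 at -0.96 ± 0.07. Of 15 cytosolic ribosomal protein genes, 1 rose, 0 fell and 14 did not pass. That rise ended on leaving out any array but vehicle replicate 2. Among 28 constitutive proteasome subunits, 1 rose, 8 fell and 19 did not pass, the falls being by at most 0.28. Of the 8 falls, 5 passed with plain probe sets alone and 3 were not measured. There were 5 falls without 40 nM replicate 1 or 2, and 0 rises without vehicle replicate 2.

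Of 30 lysosomal genes, 21 rose, 1 fell and 8 did not pass, with a median of 0.31, and none changed 2-fold. Of the 21 rises, 11 passed with plain probe sets alone, 5 did not and 5 were not measured. The falls numbered 2 without 40 nM replicate 3. Acid sphingomyelinase SMPD1 rose by 0.73 ± 0.09, the protease TPP1 by 0.63 ± 0.06, the saposin precursor PSAP by 0.59 ± 0.05 and cathepsin D, CTSD, by 0.52 ± 0.10. SMPD1 and TPP1 were not called without _x_at and _s_at probe sets (0.17 and 0.092). Of 30 autophagy genes, 12 rose, 6 fell and 12 did not pass, and the ubiquitin-like GABARAPL1 rose by 1.33 ± 0.15. Of the 6 falls of autophagy genes, 3 passed with plain probe sets alone, 1 did not and 2 were not measured. Those falls numbered 2 without 40 nM replicate 2. ATG3, which conjugates that family to lipid, fell by 0.59 ± 0.07.

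Genes of redox defence rose in most cases. NRF2, encoded by NFE2L2, is the factor that turns on antioxidant and conjugating enzymes, and the quinone of geldanamycin is a substrate of one of its targets, NQO1. NFE2L2 rose by 0.49 ± 0.06 and NQO1, at 13.44, 13.47 and 13.55 at 40 nM against 13.13, 13.18 and 13.19 in vehicle, by 0.32 ± 0.05. Of 22 redox targets, 16 rose, 0 fell and 6 did not pass, with a median of 0.48. Heme oxygenase HMOX1 read 10.16, 10.17 and 10.17 at 40 nM, against 8.62, 8.46 and 8.41 in vehicle (1.67 ± 0.06, adjusted p = 1.4e-10), without overlap. GPX2, a glutathione peroxidase of gut epithelium that is not among these 22, read 9.88, 9.69 and 9.77 at 40 nM, against 6.35, 6.41 and 6.16 in vehicle (3.48 ± 0.07, adjusted p = 1.3e-12). It is on the list of transsulfuration and glutathione enzymes, where 13 rose, 4 fell and 8 did not pass of 25. GCLM and GCLC, the subunits of the enzyme that starts glutathione synthesis, both rose, by 0.69 ± 0.05 and 0.69 ± 0.05, and GLRX, glutaredoxin, by 1.51 ± 0.07. Of 8 genes of the pentose phosphate pathway, which supplies NADPH, 2 rose, 2 fell and 4 did not pass: PGD and TKT rose by 0.74 ± 0.06 and 0.34 ± 0.05 (TKT not with plain probe sets alone, -0.022), and RPIA and PGLS fell by 0.68 ± 0.07 and 0.30 ± 0.05.

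Carbonyl reductases and transporters that handle drugs rose in part. Of 20 aldo-keto, carbonyl and quinone reductase genes, 10 rose, 1 fell and 9 did not pass. There were 2 falls without vehicle replicate 3. AKR1C2, which reduces steroids, read 13.78, 13.90 and 13.65 at 40 nM, against 12.68, 12.73 and 12.61 in vehicle (1.10 ± 0.06, adjusted p = 9.3e-09), and POR, the electron donor of cytochromes P450, rose by 1.29 ± 0.08. The AKR1C genes are close in sequence, so their probe sets may share transcripts. Of 13 drug efflux pumps, 8 rose, 1 fell and 4 did not pass, with the highest median of the 83 lists after tyrosine breakdown, 0.70. ABCC2 read 10.11, 10.09 and 10.27 at 40 nM, against 8.84, 8.74 and 8.72 in vehicle (1.39 ± 0.07, adjusted p = 4.5e-09), and ABCB6, ABCC1, ABCG2 and ABCA1 rose by 0.93 ± 0.12, 0.87 ± 0.05, 0.82 ± 0.15 and 0.90 ± 0.08. ABCB1, or P-glycoprotein, stayed near the bottom of the range at 2.36, 2.44 and 2.52 at 40 nM and 2.50, 2.42 and 2.53 in vehicle (-0.04 ± 0.10, adjusted p = 0.8).

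Among cytochromes P450, 8 rose, 2 fell and 12 did not pass of 22. Of the 8 rises, 5 passed with plain probe sets alone and 3 were not measured. CYP4F3, a fatty acid hydroxylase, read 6.13, 6.28 and 6.46 at 40 nM, against 3.84, 3.66 and 3.08 in vehicle (2.77 ± 0.15, adjusted p = 9.3e-09), CYP3A5 rose by 1.48 ± 0.14, and CYP26B1, which clears retinoic acid, fell by 1.63 ± 0.13. SULT1A1, a sulfotransferase, rose by 1.59 ± 0.06 but was not called from its remaining probe set without _x_at and _s_at ones (-0.08). Tyrosine breakdown had 5 rises among 7 genes: beside HPD, PCBD1 rose by 0.81 ± 0.05, HGD by 0.76 ± 0.10, FAH by 0.73 ± 0.10 and GSTZ1 by 0.40 ± 0.07, while TAT, its first enzyme, did not pass (0.05 ± 0.11, adjusted p = 0.78).

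Of 18 iron genes, 7 rose, 2 fell and 9 did not pass: beside ferroportin, SCARA5, a receptor of ferritin, read 9.05, 9.11 and 9.06 at 40 nM, against 6.21, 6.10 and 6.10 in vehicle (2.94 ± 0.12, adjusted p = 6.4e-10), and LCN2, which binds iron carriers of bacteria, rose by 1.41 ± 0.08. Of the 7 rises, 4 passed with plain probe sets alone, 1 did not and 2 were not measured. The falls numbered 4 without vehicle replicate 3. STEAP3, the reductase of endosomal iron, fell by 0.91 ± 0.05. Of 15 metallothionein and zinc transporter genes, 1 rose, 7 fell and 7 did not pass. Metallothioneins are small proteins that bind zinc and copper. MT2A read 12.41, 12.43 and 12.30 at 40 nM, against 13.24, 13.32 and 13.31 in vehicle (-0.91 ± 0.05, adjusted p = 1.2e-08), and MT1X, MT1G, MT1H, MT1F and MT1E fell by 0.89 ± 0.06, 0.89 ± 0.11, 0.88 ± 0.08, 0.66 ± 0.07 and 0.64 ± 0.10. These genes are near-identical in sequence and their probe sets may share transcripts. Of the 7 falls of that list, 1 passed with plain probe sets alone, 1 did not and 5 were not measured. The one that passed was the zinc transporter SLC39A14 at -0.44 ± 0.05 (mean of its probe sets -0.16, not called), MT1G did not (0.15), and the other metallothioneins that fell were not measured. The single rise became 2 without vehicle replicate 3.

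Energy metabolism showed no common direction in glycolysis, where 9 rose, 6 fell and 12 did not pass of 27. Of the 9 rises, 4 passed with plain probe sets alone and 5 were not measured. Of the 6 falls, 3 passed with plain probe sets alone, 2 did not and 1 was not measured. Adrenomedullin, ADM, rose by 1.20 ± 0.07 and the regulatory kinase PFKFB4 by 0.97 ± 0.07, while the angiogenic factor VEGFA fell by 0.79 ± 0.09. Of 22 respiratory chain genes, 10 rose, 0 fell and 12 did not pass; beside COXFA4L3 at 2.08 ± 0.11 all rises were below 0.4. Lipid genes had single large moves: PLPP4, a lipid phosphatase, fell by 2.57 ± 0.14 and GPAM of triglyceride synthesis by 0.93 ± 0.08, while MGLL, which splits monoglycerides, rose by 1.25 ± 0.08. INSIG1, a brake on sterol synthesis, fell by 1.22 ± 0.08.

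**Figure D3:**
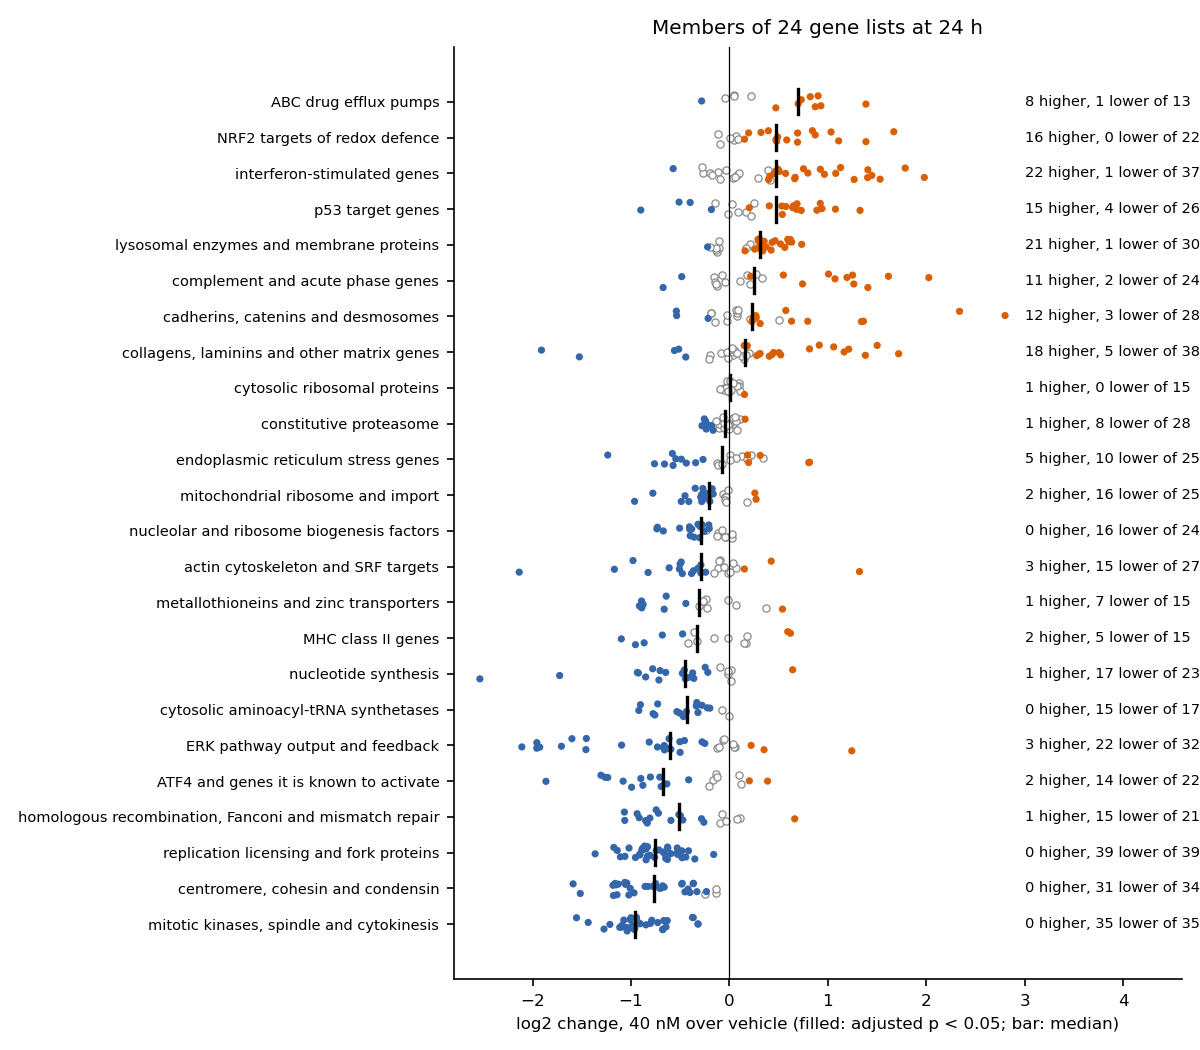
Log2 changes at 40 nM over vehicle of the members of 24 gene lists, one dot per measured gene, filled where limma's adjusted p was below 0.05, with a bar at each list's median; counts of genes higher and lower stand at the right. Replication and mitotic lists lie wholly below 0, lysosome and NRF2 lists mostly above.

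All 39 replication genes and all 35 genes of mitotic kinases, spindle and cytokinesis were called lower, with medians of -0.76 and -0.96, against 16.7% of all genes. The smallest replication fall (-0.16) was not called without 40 nM replicate 1 or 2 or vehicle replicate 2 (limma adjusted p = 0.081, 0.067 and 0.057). Of the 39 falls of replication genes, 26 passed with plain probe sets alone, 4 did not and 9 were not measured. Of the 35 falls of mitotic genes, 22 passed with plain probe sets alone, 3 did not and 10 were not measured. Of 34 centromere, cohesin and condensin genes, 0 rose, 31 fell and 3 did not pass. In bulk RNA, fewer cycling cells and less of these transcripts per cell cannot be told apart. RRM2, the regulated subunit of ribonucleotide reductase, read 9.64, 9.61 and 9.65 at 40 nM, against 11.39, 11.39 and 11.30 in vehicle (-1.73 ± 0.05, adjusted p = 3.4e-11). AURKB, a kinase of chromosome segregation, read 8.45, 8.41 and 8.52 at 40 nM, against 10.04, 10.05 and 9.96 in vehicle (-1.55 ± 0.06, adjusted p = 4.1e-10). FOXM1, the factor that drives mitotic genes, read 7.66, 7.51 and 7.78 at 40 nM, against 9.21, 9.05 and 9.0 in vehicle (-1.44 ± 0.08, adjusted p = 9.1e-09). No group of these genes overlapped, and the gap between the groups was over 1 log2 unit in each.

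Within replication, the primase subunit PRIM1 fell by 1.36 ± 0.08, the checkpoint mediator CLSPN by 1.17 ± 0.10, MCM10 by 1.14 ± 0.09, CDC45 of the replicative helicase by 1.06 ± 0.08 and its subunit MCM7 by 1.02 ± 0.06. Within mitosis, the kinetochore subunits SPC25 and SPC24 fell by 1.59 ± 0.09 and 1.52 ± 0.10, CDCA3, which triggers mitotic entry, by 1.75 ± 0.06, the spindle protein DLGAP5 by 1.27 ± 0.08, PLK1 by 1.01 ± 0.08, condensin NCAPG by 1.18 ± 0.09 and survivin, BIRC5, by 0.97 ± 0.05. Most repair genes fell: of 21, 1 rose, 15 fell and 5 did not pass, with BLM at -1.07 ± 0.08, BRIP1 at -1.06 ± 0.09, EXO1 at -0.94 ± 0.07 and BRCA1 at -0.74 ± 0.06.

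Cyclins, cyclin-dependent kinases and E2F factors mostly fell: of 28, 4 rose, 18 fell and 6 did not pass, with a median of -0.39. Over all genes 14.8% rose and 16.7% fell. CCNA2 and CCNE2 fell by 1.21 ± 0.08 and 1.07 ± 0.10, and the repressors E2F7 and E2F8 by 1.40 ± 0.11 and 1.25 ± 0.08. CCND3, a cyclin of early G1, read 12.02, 12.06 and 11.87 at 40 nM, against 10.82, 10.83 and 10.80 in vehicle (1.17 ± 0.06, adjusted p = 2.8e-09). CDK4, its kinase partner and a client of HSP90, fell by 0.54 ± 0.05. Of the inhibitors, CDKN1A, or p21, rose by 0.65 ± 0.06, CDKN1B did not pass (0.00 ± 0.06, adjusted p = 1) and CDKN3, a phosphatase made in cycling cells, fell by 0.72 ± 0.05. Among 18 histone genes, 9 rose, 5 fell and 4 did not pass: H2AX fell by 0.93 ± 0.07, while H2BC12 and H2AC6 rose by 0.88 ± 0.07 and 1.06 ± 0.10. Of the 9 rises of histone genes, 4 passed with plain probe sets alone, 1 did not and 4 were not measured. Of the 5 falls of histone genes, 2 passed with plain probe sets alone, 1 did not and 2 were not measured.

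The cell cycle homology region TTTGAA and the CCAAT box, both sought on either strand, were in 10.6% and 34.1% of all promoters, and in 26 and 39 of the 57 genes of the mitotic and centromere lists with a promoter (45.6% and 68.4%). TTTGAA was in 24 of 54 that were called and in 2 of 3 that were not, and CCAAT in 36 of 54 and 3 of 3. Among all genes that rose at least 2-fold, TTTGAA was in 13.6%, and among those that fell as much in 18.2%. Whether these letters act as the elements was not tested. DLGAP5 and SPC25 had the largest falls among members with both, which stand in capitals:
SPC25, chr2:168890431-168890680 (minus strand): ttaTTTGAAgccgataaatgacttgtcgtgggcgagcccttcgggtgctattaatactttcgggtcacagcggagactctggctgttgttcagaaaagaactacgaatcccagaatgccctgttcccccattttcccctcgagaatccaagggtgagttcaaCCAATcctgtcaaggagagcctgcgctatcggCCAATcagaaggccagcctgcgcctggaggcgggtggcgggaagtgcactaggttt
DLGAP5, chr14:55191586-55191835 (minus strand): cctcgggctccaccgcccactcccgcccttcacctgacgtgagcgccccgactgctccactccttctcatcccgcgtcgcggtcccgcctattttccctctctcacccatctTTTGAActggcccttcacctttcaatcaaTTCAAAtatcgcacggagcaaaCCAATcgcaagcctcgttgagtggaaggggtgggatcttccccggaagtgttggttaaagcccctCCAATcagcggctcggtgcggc

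In SPC25 the single TTTGAA begins at position -247, before the CCAAT boxes at -88 and -56. In DLGAP5 it begins at -138 and, reversed, at -109, and the CCAAT boxes at -87 and -22. An E2F site, TTTCNCGC, was in 3.35% of all promoters and in 9 of 35 replication genes (25.7%).

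Targets of p53, the DNA damage and stress factor, rose in part. Of 26, 15 rose, 4 fell and 7 did not pass, with a median of 0.47. Of the 15 rises, 9 passed with plain probe sets alone, 2 did not and 4 were not measured. ZMAT3 read 8.75, 8.62 and 8.88 at 40 nM, against 7.49, 7.45 and 7.33 in vehicle (1.33 ± 0.08, adjusted p = 1.9e-08), and MDM2, the ligase that degrades p53, rose by 0.73 ± 0.07, with 4 of its 9 other probe sets also called higher. Of 20 BCL2 family genes, 8 rose, 5 fell and 7 did not pass, with a median of 0.094. Of the 5 falls, 2 passed with plain probe sets alone, 1 did not and 2 were not measured. The pro-apoptotic BID, BAX and BCL2L11 rose by 0.70 ± 0.06, 0.68 ± 0.09 and 0.63 ± 0.08, and the survival factor MCL1 fell by 0.62 ± 0.05. Pro-apoptotic members were also among the falls and a survival member among the rises, in calls that ended without certain single arrays. The death ligand TNFSF10, or TRAIL, rose by 0.90 ± 0.10, its receptor TNFRSF10A fell by 0.44 ± 0.07, and FAS rose by 0.69 ± 0.08. FAS was not called without _x_at and _s_at probe sets (0.07).

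Receptor kinases, many of them clients whose proteins depend on HSP90, showed no common direction in their transcripts. Of 28, 8 rose, 5 fell and 15 did not pass, against 14.8% of all genes that rose and 16.7% that fell. Of the 8 rises, 4 passed with plain probe sets alone, 1 did not and 3 were not measured. Of the 5 falls, 2 passed with plain probe sets alone, 1 did not and 2 were not measured. The rises numbered 5 without 40 nM replicate 1 or vehicle replicate 2. FGFR3 read 7.61, 7.85 and 7.84 at 40 nM, against 5.82, 5.39 and 5.02 in vehicle (2.35 ± 0.17, adjusted p = 9.7e-08), and FGFR4 rose by 1.29 ± 0.06. EGFR, the receptor of EGF, read 9.09, 9.34 and 9.28 at 40 nM, against 8.65, 8.56 and 8.41 in vehicle, a rise of 0.69 ± 0.08 that 1 of its 8 other probe sets shared. MET, the receptor of hepatocyte growth factor, fell by 0.65 ± 0.06, AXL by 0.40 ± 0.05 and TYRO3 by 0.67 ± 0.11. Of 24 cytosolic kinases known as clients, 8 rose, 8 fell and 8 did not pass: SRC rose by 1.05 ± 0.06, though none of its 6 other probe sets was called and the mean of its probe sets read 0.12 (limma adjusted p = 0.22). LYN rose by 0.67 ± 0.09 and MAP3K14 of the non-canonical NF-kB pathway by 0.82 ± 0.07, whereas AKT1 did not pass (-0.03 ± 0.07, adjusted p = 0.83). Of EGF family ligands, EREG fell by 0.76 ± 0.07, NRG1 by 0.66 ± 0.07 (-0.21 without _x_at and _s_at probe sets, not called), and BTC and EGF rose by 0.66 ± 0.12 and 0.65 ± 0.13.

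Genes that read out the ERK pathway were lower. Of 32 output and feedback genes, 3 rose, 22 fell and 7 did not pass, with a median of -0.60. EGR1, an immediate early factor, read 6.60, 6.50 and 6.31 at 40 nM, against 8.64, 8.52 and 8.57 in vehicle (-2.11 ± 0.07, adjusted p = 1.1e-10). ETV5, an ETS factor, read 7.19, 7.15 and 7.19 at 40 nM, against 9.24, 9.15 and 9.01 in vehicle (-1.96 ± 0.07, adjusted p = 1.5e-10). The groups of both lay apart by over 1 log2 unit. IER2 fell by 1.45 ± 0.05, the uridine phosphorylase UPP1 by 1.46 ± 0.07, the cytokine IL11 by 1.71 ± 0.06, and ETV1, with 1 of its 4 other probe sets called, by 1.96 ± 0.15.

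AP-1 and Kruppel-like factors fell more often than they rose. Among 18 AP-1 and small MAF factors, 1 rose, 6 fell and 11 did not pass. Among 16 Kruppel-like factors, 3 rose, 6 fell and 7 did not pass. Over all genes 14.8% rose and 16.7% fell. FOS fell by 1.9 ± 0.12, FOSL1 by 1.93 ± 0.09, JUN by 1.02 ± 0.05, JUNB by 0.73 ± 0.07 and the small MAF factor MAFF by 1.84 ± 0.12, whereas FOSL2 rose by 0.77 ± 0.06. KLF6 read 7.13, 7.15 and 7.41 at 40 nM, against 8.99, 8.80 and 8.59 in vehicle (-1.56 ± 0.11, adjusted p = 8.8e-08), KLF7 fell by 0.97 ± 0.07, KLF4 by 0.47 ± 0.09 and KLF2 by 2.61 ± 0.15. KLF5, a factor of epithelial growth, rose by 0.98 ± 0.11. The calls of the other Kruppel-like factors that rose ended without certain single arrays. Nothing was called for KLF2 from its second probe set (-0.10, limma adjusted p = 0.65).

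Of 28 nuclear receptors, 12 rose, 4 fell and 12 did not pass. VDR, the vitamin D receptor, read 6.05, 6.08 and 6.25 at 40 nM, against 8.27, 8.22 and 8.23 in vehicle (-2.12 ± 0.07, adjusted p = 1.2e-10), and NR1D2, a repressor of the clock, fell by 1.54 ± 0.11. NR3C1, the glucocorticoid receptor and a classical HSP90 client, read 11.22, 11.32 and 11.15 at 40 nM, against 10.63, 10.74 and 10.72 in vehicle (0.53 ± 0.06, adjusted p = 1.6e-05), and all 4 of its other probe sets rose, by 0.64 to 0.86. Its targets were divided: of 18, 7 rose, 6 fell and 5 did not pass. Of the 6 falls of these targets, 3 passed with plain probe sets alone, 1 did not and 2 were not measured. TSC22D3, or GILZ, and FKBP5 fell by 0.99 ± 0.08 and 0.56 ± 0.06, the first not called without _x_at and _s_at probe sets (-0.31), while CEBPD, PDK4 and the sodium channel subunit SCNN1A rose by 1.86 ± 0.08, 1.78 ± 0.07 and 1.24 ± 0.09. PPARA and the sterol sensor NR1H3 rose by 1.05 ± 0.11 and 0.94 ± 0.10.

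**Figure D4:**
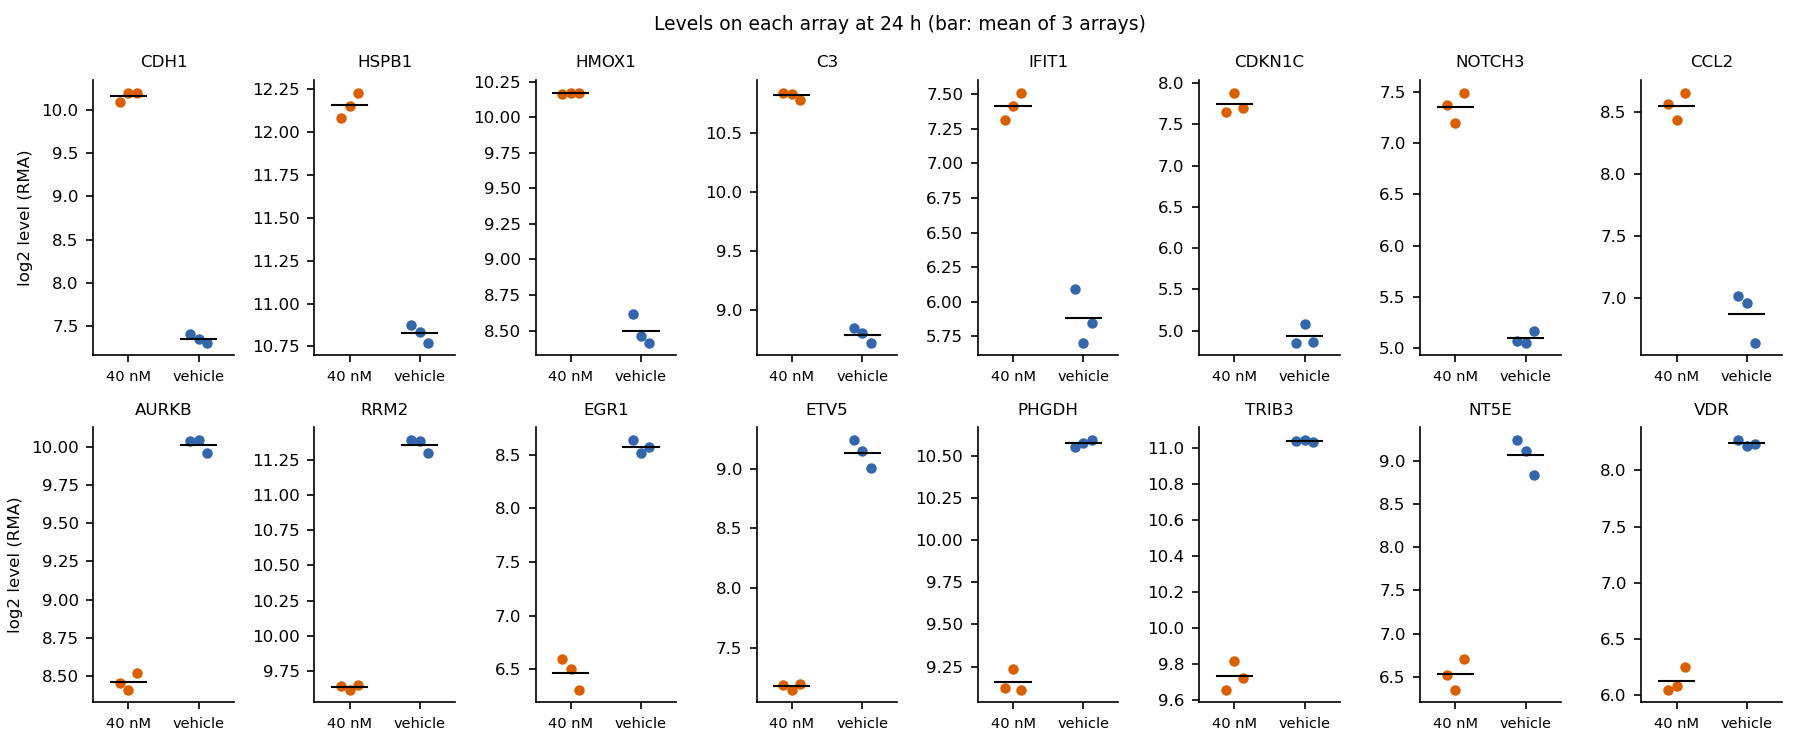
Log2 level on each of the 6 arrays for 16 genes, 40 nM (orange, left) and vehicle (blue, right) side by side, with a short bar at the mean of 3 arrays. In every panel the 3 arrays of one group lie apart from the 3 of the other; CDH1, HSPB1, HMOX1, C3, IFIT1, CDKN1C, NOTCH3 and CCL2 are higher at 40 nM and the other 8 lower.

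Adhesion genes of epithelia rose in part. CDH1, E-cadherin, read 10.09, 10.20 and 10.19 at 40 nM, against 7.41, 7.36 and 7.31 in vehicle (2.80 ± 0.06, adjusted p = 9.1e-13), and CDH2, N-cadherin, read 9.70, 9.64 and 9.58 at 40 nM, against 10.17, 10.23 and 10.14 in vehicle (-0.54 ± 0.06, adjusted p = 4.3e-06). In epithelial-mesenchymal transition, by contrast, CDH2 is known to replace CDH1. Of 28 cadherin, catenin and desmosome genes, 12 rose, 3 fell and 13 did not pass. JUP, plakoglobin, rose by 2.34 ± 0.07, NECTIN3 by 1.36 ± 0.08, kidney cadherin CDH16 by 1.34 ± 0.16, and the desmosome proteins DSP and DSG2 by 0.80 ± 0.08 and 0.57 ± 0.05. Of 26 regulators and markers of that transition, 6 rose, 12 fell and 8 did not pass: SNAI2 and TWIST1, repressors of CDH1, fell by 0.48 ± 0.06 and 0.80 ± 0.16.

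Tight junction genes were mixed: CLDN2, a pore-forming claudin, rose by 1.34 ± 0.08 and the polarity protein PARD3 by 1.06 ± 0.07, but CLDN1 and OCLN fell by 0.87 ± 0.07 and 0.67 ± 0.11. Of the keratins, KRT8 and KRT18 of simple epithelium rose by 0.53 ± 0.05 and 0.44 ± 0.05 on levels above 12. KRT7 fell by 0.90 ± 0.05, a call that ended without _x_at and _s_at probe sets (-0.14). AGR2, a disulfide isomerase of mucus-producing cells, read 11.01, 10.96 and 11.02 at 40 nM, against 7.81, 7.72 and 7.60 in vehicle (3.29 ± 0.06, adjusted p = 3.8e-13). Of 34 mucin and secretory genes, 10 rose, 1 fell and 23 did not pass. The falls numbered 5 without vehicle replicate 1.

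Of 38 matrix genes measured, 18 rose, 5 fell and 15 did not pass. Of the 18 rises, 8 passed with plain probe sets alone, 6 did not and 4 were not measured. Of the 5 falls, 3 passed with plain probe sets alone, 1 did not and 1 was not measured. NID2, nidogen, read 8.85, 8.80 and 8.92 at 40 nM, against 7.29, 7.18 and 6.94 in vehicle (1.72 ± 0.10, adjusted p = 2.1e-08), perlecan, HSPG2, rose by 1.17 ± 0.06, laminin LAMB2 by 1.06 ± 0.11, fibrillin FBN1 by 1.21 ± 0.07 and COL12A1 by 1.5 ± 0.17. COL13A1, a transmembrane collagen, fell by 1.53 ± 0.12 and CCN2, a matricellular target of YAP and TGF-beta, by 1.91 ± 0.09. Of 27 actin and SRF target genes, 3 rose, 15 fell and 9 did not pass. Of the 15 falls of actin and SRF genes, 8 passed with plain probe sets alone, 3 did not and 4 were not measured. CORO2B fell by 2.14 ± 0.10, TAGLN by 1.17 ± 0.09, CORO1A by 0.98 ± 0.09 and TPM4 by 0.83 ± 0.08, while smooth muscle actin ACTA2 rose by 1.32 ± 0.09, from 1 of its 3 probe sets. TAGLN was not called without _x_at and _s_at probe sets (-0.15).

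Developmental signals showed single large moves within mixed lists. Of 34 Wnt genes, 11 rose, 6 fell and 17 did not pass: LGR4, a receptor of R-spondins, rose by 1.37 ± 0.07, the feedback ligase RNF43 by 1.0 ± 0.13 and AXIN2, a common target, by 0.75 ± 0.07, while WNT7B fell by 0.84 ± 0.07. Of the 11 rises of Wnt genes, 4 passed with plain probe sets alone, 4 did not and 3 were not measured. LGR4 was not called without _x_at and _s_at probe sets (0.057). Of 24 Notch genes, 5 rose, 8 fell and 11 did not pass: NOTCH3 read 7.37, 7.20 and 7.50 at 40 nM, against 5.06, 5.05 and 5.16 in vehicle (2.26 ± 0.11, adjusted p = 2.3e-09), and the targets HES1 and HEY1 fell by 0.61 ± 0.10 and 0.73 ± 0.08, HES1 not from the probe set left without _x_at and _s_at ones (-0.10). Of the 5 rises of Notch genes, 3 passed with plain probe sets alone and 2 were not measured. Of the 8 falls of Notch genes, 3 passed with plain probe sets alone, 1 did not and 4 were not measured. BMP4 rose by 1.5 ± 0.08, and the BMP antagonist NOG fell by 0.64 ± 0.09.

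Of 24 complement and acute phase genes, 11 rose, 2 fell and 11 did not pass, and 8 of the rises reached 2-fold. Of the 11 rises, 7 passed with plain probe sets alone, 2 did not and 2 were not measured. C3, the central complement component, read 10.84, 10.82 and 10.78 at 40 nM, against 8.84, 8.80 and 8.72 in vehicle (2.03 ± 0.05, adjusted p = 1.2e-11). CFI, C1S, CFB and C1R rose by 1.62 ± 0.13, 1.26 ± 0.09, 1.19 ± 0.10 and 1.01 ± 0.08, the complement shield CD55 by 1.07 ± 0.09 and CLU, clusterin, an extracellular chaperone, by 1.25 ± 0.05. CFB was not called without _x_at and _s_at probe sets (0.18).

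Of 37 interferon-stimulated genes, 22 rose, 1 fell and 14 did not pass, with a median of 0.47. There were 3 falls without 40 nM replicate 3. IFIT1, which binds foreign RNA, read 7.32, 7.42 and 7.51 at 40 nM, against 6.09, 5.70 and 5.85 in vehicle (1.53 ± 0.11, adjusted p = 8.9e-08). ISG20, an exonuclease, read 7.89, 7.86 and 8.05 at 40 nM, against 6.18, 5.82 and 5.86 in vehicle (1.98 ± 0.10, adjusted p = 4.3e-09). Both were called without overlap, as were GBP2 at 1.79 ± 0.17, TRIM22 at 1.45 ± 0.19, IFIT3 at 1.41 ± 0.14, BST2 at 1.40 ± 0.22 and OAS1 at 1.27 ± 0.12. The interferon-stimulated response element, sought on both strands as GAAA, any 2 bases and GAAA, was in 2.48% of all promoters and in 18 of 28 members with a promoter (64.3%). It was in 11 of 17 members that were called and in 7 of 11 that were not. The 2 called members with the largest rises and the element follow, with it in capitals:
ISG20, chr15:88638766-88639015 (plus strand): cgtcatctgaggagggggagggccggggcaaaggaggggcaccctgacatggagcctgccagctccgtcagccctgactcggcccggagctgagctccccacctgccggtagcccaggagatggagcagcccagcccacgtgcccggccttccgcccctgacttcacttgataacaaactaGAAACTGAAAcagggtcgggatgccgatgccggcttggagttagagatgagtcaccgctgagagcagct
IFIT1, chr10:89392373-89392622 (plus strand): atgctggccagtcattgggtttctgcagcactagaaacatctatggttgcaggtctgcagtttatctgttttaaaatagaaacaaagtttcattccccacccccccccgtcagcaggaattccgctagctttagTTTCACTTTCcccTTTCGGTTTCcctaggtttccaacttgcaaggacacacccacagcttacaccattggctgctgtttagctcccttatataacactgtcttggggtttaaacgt

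IFIT1 holds 2 copies, which begin at positions -116 and -103, and ISG20 holds 1, at -69.

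NF-kB genes and chemokines rose in part. Of 17 subunits and feedback inhibitors, 10 rose, 1 fell and 6 did not pass, and of 19 chemokines, 9 rose, 0 fell and 10 did not pass. Of the 10 rises of NF-kB genes, 6 passed with plain probe sets alone, 2 did not and 2 were not measured. Their falls numbered 3 without 40 nM replicate 2. CCL2, which draws monocytes, read 8.56, 8.43 and 8.65 at 40 nM, against 7.02, 6.96 and 6.64 in vehicle (1.68 ± 0.09, adjusted p = 1.1e-08), and CCL26, an eotaxin, read 9.87, 10.00 and 9.93 at 40 nM, against 7.26, 6.82 and 6.72 in vehicle (3.01 ± 0.13, adjusted p = 8.4e-10). Neither gene's groups overlapped. CCL20 rose by 1.53 ± 0.10, CXCL3 by 1.02 ± 0.08, the inhibitor TNFAIP3 by 0.92 ± 0.09, REL by 0.92 ± 0.11 and NFKBIA by 1.28 ± 0.06, the last without support from its second probe set (-0.12). The NF-kB site, sought on both strands as GGGA, any 2 bases and TTCC, was in 1.39% of all promoters, in 6 of 15 called members of these lists and in 6 of 15 that were not called.

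Of 15 MHC class II genes, 2 rose, 5 fell and 8 did not pass. Of the 5 falls, 3 passed with plain probe sets alone, 1 did not and 1 was not measured. HLA-DRA read 5.57, 5.31 and 5.24 at 40 nM, against 6.56, 6.44 and 6.42 in vehicle (-1.10 ± 0.14, adjusted p = 2.2e-05), HLA-DPA1 fell by 0.95 ± 0.17 and HLA-DMA by 0.68 ± 0.12. The rises were those of RFX5, a factor of these promoters, at 0.59 ± 0.06 and of the protease CTSS at 0.62 ± 0.11.

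The label of an epithelial lung line was checked against markers. Of 7 markers of simple epithelium 2 were below 6 in vehicle, EPCAM and KRT19, and the summed log2 level of the list was 68.8 to 69.0 at 40 nM and 63.5 to 64.3 in vehicle. Of these 7, 6 rose, 1 fell and 0 did not pass: KRT19 rose by 0.81 ± 0.15 and EPCAM by 0.54 ± 0.11, and KRT7 was the fall. Of the 6 rises, 2 passed with plain probe sets alone and 4 were not measured. All 9 leukocyte and all 10 endothelial markers were below 6 in vehicle and none was called, although leaving out 1 array called up to 2 of the leukocyte list and 1 of the endothelial list. Of 12 markers of alveolar type 2 cells 8 were below 6 in vehicle, and 1 rose, 2 fell and 9 did not pass. The falls were those of ETV5, given above, and of the lipid transporter MFSD2A (-0.39 ± 0.09; mean of its probe sets -0.19, not called), and the rise was that of LPCAT1, which makes surfactant lipid (0.21 ± 0.06), a call that ended without 40 nM replicate 1 (limma adjusted p = 0.058) or vehicle replicate 2 (adjusted p = 0.066). SFTPC, a surfactant gene, read 5.85, 5.76 and 5.43 at 40 nM, against 5.26, 5.72 and 6.27 in vehicle (-0.07 ± 0.19, adjusted p = 0.84), and SFTPB, SFTPD and NKX2-1 did not pass, with changes of -0.08, -0.01 and -0.04. Of 11 fibroblast markers 9 were below 6 in vehicle, and the summed log2 level of the list was 50.8 to 52.1 at 40 nM and 48.7 to 49.5 in vehicle. Its 3 rises were ACTA2, COL1A1 at 0.50 ± 0.12 and PDGFRB at 0.34 ± 0.10, a call that ended without 40 nM replicate 1 (0.28, limma adjusted p = 0.097), 40 nM replicate 2 (0.35, adjusted p = 0.051) or vehicle replicate 2 (0.25, adjusted p = 0.11). Of the others, COL1A2, COL3A1, DCN and LUM did not pass, at -0.20, 0.04, 0.02 and -0.07. The part of other cells in the matrix gene results was not tested.

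The 24 h effect was set against that of the same dose at 48 h, each relative to its own vehicle. Array medians over all probe sets were 4.84 to 4.91 on the 9 arrays of 48 h and 4.32 to 4.42 on the 6 arrays of 24 h, so the arrays of both times do not share one level distribution, and they may have been normalized in separate runs. No level is compared across times, and only the changes within a time are set against each other. The difference between the effects was called for 3420 of 19775 genes (17.3%), 1816 of them with a higher value at 48 h (9.18%) and 1604 with a lower one (8.11%). Of the 40 largest rises at 24 h, 34 were also called higher at 48 h, against 10.5% of all genes, and 31 differed between the times, 30 of them with a smaller change at 48 h. Of the 40 largest falls 28 were called lower at 48 h, against 10.7% of all genes, and 4 higher, and 36 differed, 35 of them with a smaller or opposite change at 48 h; the exception was EGR1, at -2.65 ± 0.07 at 48 h. Because these genes were chosen for their size at 24 h, a smaller change at 48 h is partly built into the choice. HPD had a change of 0.51 ± 0.19 at 48 h (difference -3.43 ± 0.27, limma adjusted p = 2.0e-06). COXFA4L3, named after its values were seen as the one rise that was larger at 48 h, had 3.37 ± 0.11 at 48 h and 2.08 ± 0.11 at 24 h. KLF2 had -2.47 ± 0.15 at 48 h, a difference of 0.14 ± 0.21 that did not pass (adjusted p = 0.76).

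**Figure D5:**
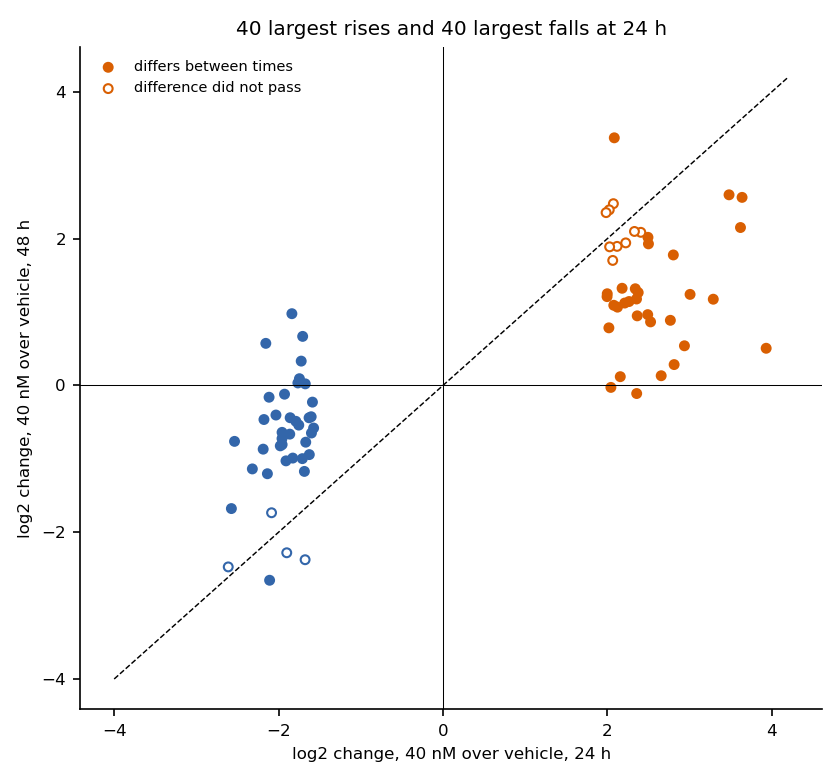
Log2 change of 40 nM over vehicle at 48 h (vertical) against that at 24 h (horizontal) for the 40 largest rises and 40 largest falls at 24 h; filled points differed between the times (limma, adjusted p below 0.05), and the dashed line marks equal changes. Most points lie nearer to 0 at 48 h than at 24 h.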

How the data were processed

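Log2 expression values were used as the authors deposited them; per the submitters' processing notes they come from RMA run in Affymetrix Expression Console (version: not given in the sources used). That method equalises the arrays' distributions, so changes are relative to the other genes. Of 54675 probe sets 62 are controls, 41091 have 1 gene symbol, 1801 have several and the other 11721 have no name here. The gene ID gave a current symbol for 41037. For each of 19775 genes the brightest single-symbol probe set over the 15 arrays was used; over the 6 arrays of 24 h it would be another for 572 genes (2.89%). Whether all arrays were normalized in 1 run is not given in the sources used.

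Group means were fitted to all 15 arrays in 5 groups with limma 3.58.1 in R 4.3.3 (lmFit, eBayes), with two-sided p-values adjusted by Benjamini-Hochberg over 19775 genes. The fit had 10 residual degrees of freedom and a median standard error of 0.0966; arrays give no read depth, and their number limits the precision. Alternatives were cyclic loess, array medians, omission of the dimmest 40% of genes, averaging each gene over its probe sets, dropping _x_at and _s_at probe sets, a replicate block, a trended robust prior, array weights, each array left out, the 6 arrays alone and a 2-fold threshold.

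The members and gene lists were chosen with earlier results of these data known. Genes could be named if they were among the 40 largest changes each way with non-overlapping groups, the up to 8 largest passing members of each list, the members of lists of at most 12, a set of HSP90-related genes or the cell type markers. CHAC1, HSPA6 and HSPA1L fall outside this rule and were chosen after their values were seen, for the motif in their promoters, as were GDF15 and MTR, for rises that end without 1 array. Promoters are RefSeq's, on GRCh38.p14. The sample titles do not say whether replicate numbers pair the samples, and the main fit did not pair them.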

Additional observations from a re-analysis of the deposited data

Results flagged for a closer look

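The 12 largest rises and the 12 largest falls at 24 h were each tested for a difference between the effect of 40 nM at 48 h and that at 24 h, with limma over all genes. All 12 rises and 10 of the 12 falls differed, against 17.3% of all genes. These genes were chosen for their size at 24 h, from which the difference is computed, so the count is a description. The values below are the log2 change at 48 h minus that at 24 h, with its standard error, and for the rises a negative value means a smaller rise at 48 h.

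Among the rises, HPD differed by -3.43 ± 0.27, CDKN1C by -2.53 ± 0.18, UGT1A6 by -2.52 ± 0.28, SCARA5 by -2.40 ± 0.17 and AGR2 by -2.11 ± 0.08. Of these, the changes at 48 h were 0.51 ± 0.19 for HPD, 0.28 ± 0.13 for CDKN1C and 0.13 ± 0.20 for UGT1A6, which had no plain probe set. The differences were -1.88 ± 0.22 for CYP4F3, -1.77 ± 0.18 for CCL26, -1.66 ± 0.14 for SLC40A1 and -1.47 ± 0.21 for SLC23A1. TM4SF4, CDH1 and GPX2 kept most of their rise, with differences of -1.08 ± 0.12, -1.02 ± 0.08 and -0.88 ± 0.10. Their changes at 48 h were 2.56 ± 0.09, 1.78 ± 0.06 and 2.60 ± 0.07.

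Among the falls, G0S2 had the opposite sign at 48 h, at 0.57 ± 0.10, with a difference of 2.73 ± 0.14. VDR differed by 1.95 ± 0.10, NT5E by 1.77 ± 0.16, MARCHF4, a membrane-bound ubiquitin ligase, by 1.71 ± 0.14 and TCF19 by 1.63 ± 0.14. The differences were 1.32 ± 0.17 for the non-coding RNA DLEU2, 1.18 ± 0.08 for FOXD1, 0.93 ± 0.14 for CORO2B and 0.90 ± 0.20 for PLPP4. EGR1 fell further at 48 h, with a difference of -0.55 ± 0.10. The difference for DLEU2 was -0.37 and did not pass (limma adjusted p = 0.44) without _x_at and _s_at probe sets.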

How the results depend on the processing

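The 333 genes named in the text were followed under every alternative run. With the dimmest 40% of genes left out, 16 of them were absent. No gene that was not called gained a call of opposite sign. Calls of the same sign were gained by 2 genes with the dimmest 40% left out and by 2 with the trended robust prior. There were 3 such genes with array weights, 1 without 40 nM replicate 2 and 1 without vehicle replicate 3. Called genes kept their direction wherever measured, except for 9 that changed sign without _x_at and _s_at probe sets: AMBP (-0.19), APOH (-0.0009), ASNS (0.036), DLEU2 (0.0087), GDF15 (-0.26), MT1G (0.15), NFKBIA (-0.12), SULT1A1 (-0.0802) and TKT (-0.022), none of them called there. A further 18 were no longer called in that setting and 78 were not measured. The cause was not tested. The difference between times reversed there for DLEU2 (-0.37). Calls at 24 h numbered 6222 genes, and 548 with a change of at least 2-fold, 320 higher and 228 lower. They numbered 4499 of 17098 genes without _x_at and _s_at probe sets, 4495 with the 6 arrays alone and 9125 with array weights. Leaving out 1 array gave 5632 to 6187, with 2614 to 3192 higher and 2901 to 3418 lower. Of the 1672 listed genes, 940 were called at 24 h, and 879 to 943 without 1 array. The difference between times was called for 3420 genes, but for 5851 with array weights (3095 higher, 2756 lower), and 1027 were lower without _x_at and _s_at probe sets. Leaving out 1 array gave 2820 to 3527 (1466 to 1993 higher, 1245 to 1917 lower). Of 166 list counts, 63 moved by over 1.5 times without _x_at and _s_at probe sets, 38 with array weights and 30 with the 6 arrays alone. In the first of these settings, members that were not measured also drop out of the counts. Same-numbered arrays did not deviate together (r = -0.26, 0.14 and -0.41), and only replicate 2 of vehicle gave its best correlation to its own number; the replicate block left 5638 calls at 24 h, 2639 for the difference between times, and ended those of HSF4 (limma adjusted p = 0.075), GDF15 (0.06) and MTR (0.071) among the genes named. The microarray has no read depth; in the dimmest of 4 bins of genes 4.57% were called.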

Other observations

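Of 16 clock genes, 3 rose, 6 fell and 7 did not pass, against 14.8% of all genes that rose and 16.7% that fell. Of the 6 falls, 2 passed with plain probe sets alone, 2 did not and 2 were not measured. Beside NR1D2, the repressor BHLHE40 fell by 0.91 ± 0.06 and the activator BMAL1 by 0.43 ± 0.08, while the repressor PER2 rose by 0.66 ± 0.10. In prostaglandin synthesis PTGS2, the inducible cyclooxygenase, rose by 2.07 ± 0.14, and HPGD, which inactivates prostaglandins, by 0.62 ± 0.05, while ALOX5AP, which helps make leukotrienes, fell by 1.46 ± 0.07. Of the 24 genes of that list, 9 rose, 3 fell and 12 did not pass. The rises numbered 5 without 40 nM replicate 3 or vehicle replicate 2, and the falls 1 without vehicle replicate 1.

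Secreted growth and guidance factors moved singly. In the insulin-like growth factor system PAPPA, which frees these factors from a binding protein, rose by 1.05 ± 0.07 and IGFBP1 by 0.75 ± 0.07, while STC1, an inhibitor of PAPPA, fell by 1.13 ± 0.09 and its relative STC2 by 0.66 ± 0.06. Of the 20 genes, 5 rose, 6 fell and 9 did not pass. Among ephrins and their receptors EFNB2 fell by 1.19 ± 0.11 and EPHA2 by 0.78 ± 0.07, and EPHA7 rose by 0.90 ± 0.07. Among semaphorins SEMA3C fell by 1.29 ± 0.08 and SEMA3A rose by 0.83 ± 0.13. Of 31 matrix proteases and inhibitors, 3 rose, 8 fell and 20 did not pass; MMP7, an epithelial protease, rose by 1.28 ± 0.15. Of the 8 falls of that list, 3 passed with plain probe sets alone, 3 did not and 2 were not measured. Of 33 cytokines and receptors, 9 rose, 3 fell and 21 did not pass, and IL1R1 and LIFR rose by 1.21 ± 0.15 and 0.90 ± 0.10.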
